A study of Mus musculus with 3 samples.

Results

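A group of 5 genes widely read as marks of alternative macrophage activation, *Arg1*, *Chil3*, *Retnla*, *Ear2* and *Mgl2*, was followed in CD45+ cells of the inflamed intestinal muscle layer. They were taken by symbol, and all 5 of 5 were listed in each count table, out of 14148 genes in all. The cells had been sorted as CD45+ from the small intestinal muscularis externa of WT C57BL/6J mice aged 12 weeks. There were 3 single-cell libraries, 1 each from naive mice and from mice 24 h and 72 h after intestinal manipulation (a laparotomy in which the bowel is rolled with cotton swabs). Each library pooled 3 to 4 mice, so there were no replicates, a time point and its library cannot be told apart, and no test between time points was run. All 3 groups share strain, age, tissue and sort gate and differ in injury and time alone as far as the labels say.

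Alternative activation is the programme that macrophages (Mφs) take on under the type 2 cytokines IL-4 and IL-13, which signal through the receptor chain IL-4Rα and the transcription factor STAT6. It is known from helminth infection, from wound repair and from the resolution of inflammation. *Arg1* encodes arginase 1, which turns arginine into ornithine and urea, and it is also induced by routes that do not need IL-4. *Chil3* encodes the secreted chitinase-like protein Ym1, which is also a known product of monocytes and neutrophils. *Retnla* encodes the secreted resistin-like protein RELMα. *Ear2* encodes a secreted ribonuclease of the eosinophil-associated family, and *Mgl2* encodes CD301b, a galactose-binding lectin of Mφs and of type 2 conventional dendritic cells (DCs).

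The 5 genes lie on 5 chromosomes (GRCm38, GENCODE annotation). *Arg1* spans bases 24915221 to 24927484 of chromosome 10 on the minus strand, with up to 8 exons, and *Chil3* spans bases 106147554 to 106167564 of chromosome 3 on the minus strand, with up to 11 exons. *Retnla* lies at bases 48842551 to 48844461 of chromosome 16 on the plus strand (4 exons). *Ear2* lies at bases 44102654 to 44103534 of chromosome 14 on the plus strand (2 exons), and *Mgl2* at bases 70130329 to 70137550 of chromosome 11 on the plus strand (up to 10 exons). The libraries read the 3′ ends of transcripts. Of the 351 overlapping runs of 50 bases in the last 400 bases of the *Ear2* transcript, 27.4% also occur in *Ear1*, 9.40% in *Ear10* and 2.56% in *Ear6*, so *Ear2* counts are uncertain where reads could not be placed in 1 gene. No such run of the other 4 members occurs in the relatives searched, *Clec10a* beside *Mgl2* included.

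The 250 bases before the RefSeq transcription start are shown for *Chil3* and *Retnla*, the secreted members whose levels at 24 h lay on opposite sides of the naive level. RefSeq promoters on GRCm38.p6 were found for 4 of 5 members, and none for *Arg1*. The letters searched on both strands were TTC and GAA with 4 bases between them (the spacing bound by STAT6), TTCNNNGAA (other STAT proteins), TTGCNNAA (C/EBP) and TATAAA (the TATA box). Matches are in capitals.
*Chil3*, chr3:106167565-106167814, minus strand: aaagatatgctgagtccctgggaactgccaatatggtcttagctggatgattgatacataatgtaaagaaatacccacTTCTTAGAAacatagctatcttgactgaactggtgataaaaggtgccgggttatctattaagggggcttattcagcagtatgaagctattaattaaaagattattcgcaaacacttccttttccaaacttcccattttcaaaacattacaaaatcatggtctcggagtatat
*Retnla*, chr16:48842359-48842608, plus strand: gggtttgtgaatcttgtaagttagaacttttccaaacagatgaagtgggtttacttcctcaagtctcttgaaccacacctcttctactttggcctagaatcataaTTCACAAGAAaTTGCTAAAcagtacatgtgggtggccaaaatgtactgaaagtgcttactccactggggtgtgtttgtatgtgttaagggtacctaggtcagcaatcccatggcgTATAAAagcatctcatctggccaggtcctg
*Retnla* held the STAT6-type letters 145 to 136 bases before its start, the C/EBP-type letters 134 to 127 bases before it and a TATA box 30 to 25 bases before it. *Chil3* held the other STAT spacing 172 to 164 bases before its start. *Ear2* held C/EBP-type letters 90 to 83 bases before its start, and none of the letters searched were in the *Mgl2* window. Of 32851 promoter windows, 5.85% hold TTC and GAA 4 bases apart, 7.02% TTCNNNGAA, 9.56% TTGCNNAA and 12.4% TATAAA, and none of these matches overlap each other in the members. The RefSeq start of *Retnla* lies downstream of the GENCODE start given above, so the end of its window, with the TATA box, lies inside the GENCODE gene. A match is a run of letters and not a measured site.

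The 3 libraries held 652 (naive), 2211 (24 h) and 1239 (72 h) cells, with 1865221, 10542346 and 5246731 UMIs (counted RNA molecules), and each pair shared 1 cell barcode. *Ptprc*, which encodes CD45, was found in 60.3%, 58.4% and 64.1% of cells. The cells were clustered without the members, their relatives and the other listed genes, so that these did not shape the clusters. Monocyte/Mφ-like cells numbered 132, 1536 and 563 in the naive, 24 h and 72 h libraries, and all 15 monocyte/Mφ markers were found in them each time. DC-like cells numbered 16, 107 and 128. A cluster of 52 cells led by B cell genes was left out of the monocyte/Mφ-like class. Levels are CPM, a gene's share of all UMIs summed over a group of cells, with exact 95% Poisson intervals in brackets. These intervals take in counting error alone and say nothing of spread among mice, and groups under 20 cells were not compared.

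In monocyte/Mφ-like cells the members split into 3 patterns over time. *Arg1* and *Chil3* were highest at 24 h, *Retnla* and *Mgl2* were lowest at 24 h, and *Ear2* was highest at 72 h. *Arg1* was at 147.7 CPM [114 to 188] in naive mice, 989.9 CPM [969 to 1011] at 24 h and 356.7 CPM [336 to 379] at 72 h. *Chil3* was at 68.2 CPM [46.0 to 97.3], 1255 CPM [1232 to 1279] and 157.3 CPM [143 to 172]. For both genes the 24 h library stood above the other 2 and the intervals did not overlap. *Arg1* was 6.70-fold [5.25 to 8.69] higher at 24 h than in naive mice, and 72 h was at 0.360 [0.338 to 0.384] of 24 h. *Chil3* was 18.4-fold [12.9 to 27.3] higher at 24 h, or 28.4-fold without the cell richest in it in each library, and 72 h was at 0.125 [0.114 to 0.138] of 24 h. At 72 h both genes were still above naive mice, *Arg1* by 2.41-fold [1.88 to 3.15] and *Chil3* by 2.31-fold [1.59 to 3.46].

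*Retnla*, the RELMα gene, was at 543.2 CPM [476 to 617] in naive mice, 13.7 CPM [11.3 to 16.3] at 24 h and 283.3 CPM [264 to 303] at 72 h. The naive value rested on few cells. Only 6 of 132 naive cells had a *Retnla* UMI, a single cell held 139 of the 239 UMIs, and the level without that cell was 229 CPM. The 24 h level was at 0.0251 [0.0201 to 0.0314] of the naive level, and at 0.0411 without the richest cell of each library. The 72 h level was 20.7-fold [17.1 to 25.3] above 24 h. *Mgl2*, the CD301b gene, was at 279.5 CPM [232 to 334], 17.2 CPM [14.6 to 20.2] and 155.3 CPM [141 to 170]. It was spread over many naive cells, and 24 h was at 0.0617 [0.0483 to 0.0788] of naive and 72 h 9.01-fold [7.49 to 10.9] above 24 h. With cells taken by fixed markers in each cell instead of by cluster, the 24 h level of *Mgl2* was at 0.132 of the naive one. At 72 h *Mgl2* was at 0.556 [0.454 to 0.683] of the naive level and *Retnla* at 0.522 [0.451 to 0.605]. The *Retnla* direction turned without the richest cell of each library, with 229 CPM in naive mice and 244.5 CPM at 72 h.

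*Ear2* was at 22.7 CPM [10.9 to 41.8] in naive mice, 24.0 CPM [20.9 to 27.4] at 24 h and 82.9 CPM [72.8 to 93.9] at 72 h. The naive and 24 h levels overlapped within counting error, with a ratio of 1.05 [0.562 to 2.23]. The 72 h level was 3.46-fold [2.87 to 4.17] above 24 h, and 5.74-fold with cells taken by fixed markers.

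**Figure D1:**
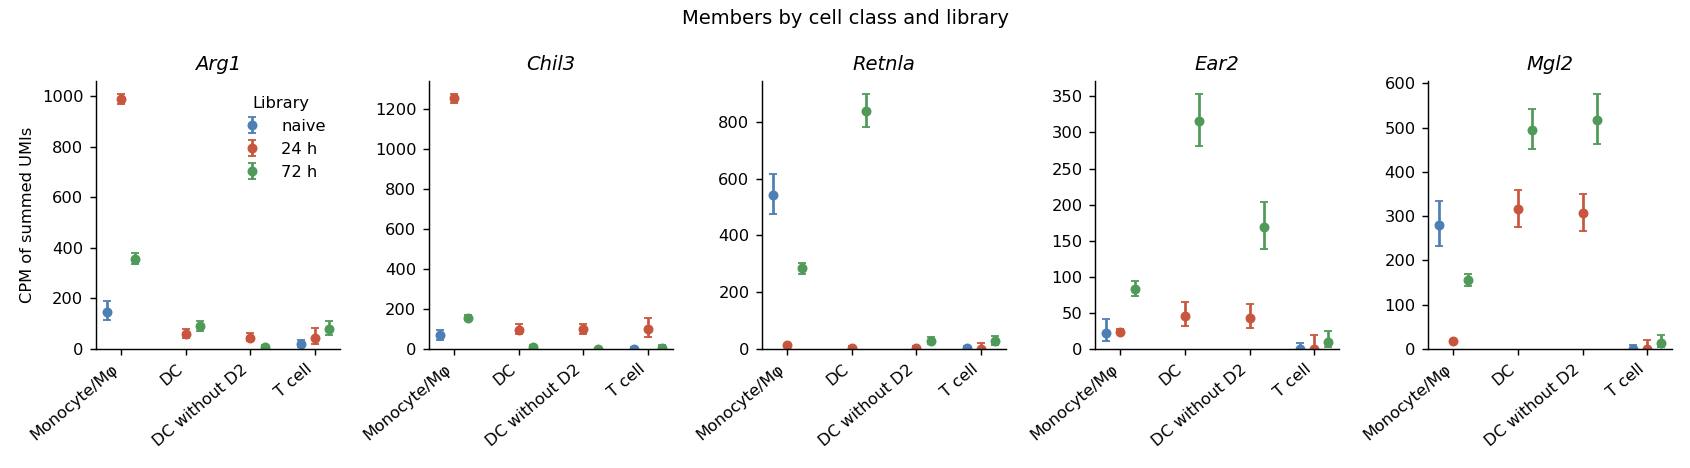
Level of each member (CPM of summed UMIs, y axis) in 4 groups of cells (x axis) and 3 libraries (naive blue, 24 h red, 72 h green). Points are 1 library each, bars are exact 95% Poisson intervals, and groups under 20 cells are left out. *Arg1* and *Chil3* reached 989.9 and 1255 CPM in monocyte/Mφ-like cells at 24 h, and *Retnla* in DC-like cells at 72 h stood at 838 CPM with subcluster D2 and at 27.0 CPM without it.

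For a count against all genes, a gene was taken as higher or lower at a 2-fold difference of CPM plus 10, provided that 1 of the groups reached 20 CPM. From naive to 24 h, 2 of 5 members were higher and 2 lower, where 5.69% of all genes were higher and 5.61% lower. From 24 h to 72 h, 3 of 5 were higher and 2 lower, where 2.05% of all genes were higher and 2.22% lower. Between naive mice and 72 h, 3 of 5 were higher and 0 lower, where 1.46% of all genes were higher and 2.17% lower. The members were picked with earlier results of these data known, so their counts are a description.

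The shares of cells with a UMI gave the same order of libraries for *Arg1*, *Chil3*, *Ear2* and *Mgl2* as the levels did. For *Ear2* the naive and 24 h levels overlapped within counting error. *Arg1* was found in 13.6% of naive, 67.2% of 24 h and 42.1% of 72 h monocyte/Mφ-like cells, and *Chil3* in 7.58%, 73.9% and 24.5%. *Mgl2* was found in 36.4%, 4.62% and 27.7%. *Retnla* was found in 4.55%, 1.76% and 19.7% of cells and *Ear2* in 3.03%, 8.59% and 14.4%. Depth differed, with a median of 3152, 5917.5 and 5276 UMIs per cell, so cells were also thinned to 1500 UMIs each, which left 110, 1459 and 523 cells. The thinned shares were 10.0%, 48.2% and 23.7% for *Arg1*, 6.36%, 52.6% and 14.3% for *Chil3*, and 26.4%, 2.06% and 15.7% for *Mgl2*. *Retnla* stood at 2.73%, 0.960% and 10.9% after thinning, and *Ear2* at 0.909%, 3.02% and 8.41%. The share of cells with *Retnla* was thus highest at 72 h while its level was highest in naive mice, and no order of the naive and 72 h libraries is read from either.

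Other lymphoid cells were set beside these values, since RNA freed from broken cells can give UMIs in any droplet. In T cell-like cells (median 2336.5, 2400 and 2704 UMIs per cell) *Chil3* was at 0, 101 and 4.76 CPM in the naive, 24 h and 72 h libraries, and found in 0%, 19.7% and 1.48% of cells. The zero, over 188 cells, allows a share of cells with a UMI of up to 1.6%, and says nothing of expression below capture. *Chil3* in these cells was high in the library where monocyte/Mφ-like cells had most of it. *Retnla* was at 2.10, 0 and 26.2 CPM in T cell-like cells, *Ear2* at 0, 0 and 9.52 CPM and *Mgl2* at 0, 0 and 14.3 CPM. *Arg1* was at 18.9, 42.4 and 78.5 CPM in T cell-like cells and at 8.35, 29.1 and 9.98 CPM in the largest B cell-like cluster. The T cell-like *Arg1* value at 72 h is no measure of free RNA, since all 33 UMIs lay in 1 of 2 T cell-like clusters, with up to 11 in a cell. The monocyte/Mφ-like levels of *Arg1* and *Chil3* at 24 h were 23.3-fold [11.8 to 54.1] and 12.5-fold [7.97 to 20.7] above T cell-like cells of the same library. At 24 h the monocyte/Mφ-like *Retnla*, *Ear2* and *Mgl2* levels (13.7, 24.0 and 17.2 CPM) had no T cell-like UMI beside them. The 71 T cell-like cells put the limit for a count of 0 at 15.9 CPM, so *Retnla* there could not be told from background by this measure. The *Mgl2* interval [14.6 to 20.2] took in this limit. By this measure the *Mgl2* class level at 24 h was not clearly above background either, and ratios to it carry this doubt. The 412 neutrophil-like cells at 24 h, with a limit of 7.38 CPM for a count of 0, had 0 UMIs of *Mgl2* and 1 of *Retnla*. The 38 B cell-like cells had 1 and 0.

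The monocyte/Mφ-like cells were split into 9 clusters, named only where fixed markers of a state that the study describes were met. Markers were fixed for the Ly6c+, Fabp5+, Cd206+, Timp2+ and Cx3cr1+ states alone. The study's Arg1+ Mo/Mφ and Ccr2+ int Mφ states had no marker list, so no cluster could be matched to them. At 24 h most cells fell into M0 (411 cells, Fabp5+ Mo/Mφ-like, 5 of 5 markers), M2 (317 cells, Ly6c+ monocyte-like, 5 of 6 markers, led by *Cxcl10*, *Ly6c2*, *Ifit3* and *Ifit2*), M5 (267 cells, led by *Ltc4s*, *Tppp3*, *Rhoc* and *Add3*), M3 (263 cells, unnamed, with a median of only 2120 UMIs per cell over the libraries) and M1 (223 cells, led by *Gm9733*, *H2-DMb1*, *Gsr* and *Plbd1*). A small M8 (46 cells) was led by *Mmp12* and *Cxcl3*. At 72 h the main clusters were M4 (258 cells, Cd206+ Mφ-like, 6 of 6 markers), M6 (127 cells, Timp2+ Mφ-like, 5 of 6 markers, led by *Fcna*, *Saa3*, *Prg4* and *Serpinb2*) and M1 (89 cells). M7 (Cx3cr1+ Mφ-like, 5 of 5 markers) held 70 naive cells and 21 cells at 72 h. Since different clusters hold most of the class in each library, the class values above compare different mixes of states.

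*Arg1* at 24 h was highest in cluster M5, at 2039 CPM [1965 to 2116] with a UMI in 90.3% of cells, and in M8, at 1822 CPM. The Fabp5+ Mo/Mφ-like M0 followed at 1205 CPM (84.7% of cells), then M3 at 707 CPM, the Ly6c+ monocyte-like M2 at 529 CPM and M1 at 311 CPM. M5 was 1.69-fold [1.61 to 1.78] above M0 and 3.85-fold [3.6 to 4.13] above M2, while M5 and M8 were the closest pair at 1.12-fold [1.01 to 1.24]. M0 and M5 together held most *Arg1* of the library, 39.3% and 31.3% of its UMIs. At 72 h the Timp2+ Mφ-like M6 stood apart, at 974 CPM [897 to 1057] and 70.9% of cells, with 47.9% of the library's *Arg1* UMIs in 10.3% of its cells. It was 5.12-fold [4.42 to 5.94] above the Cd206+ Mφ-like M4 (190.4 CPM) and 6.89-fold [5.49 to 8.73] above M1 (141 CPM). The 12 naive cells of M6, too few to compare, held 37 of the 82 naive *Arg1* UMIs. The Cx3cr1+ Mφ-like M7 had no *Arg1* UMI in 70 naive cells or in 21 cells at 72 h, which allows shares of cells with a UMI of up to 4.29% and 14.3%.

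*Chil3* had another order. At 24 h it was highest in the Ly6c+ monocyte-like M2, at 2576 CPM [2509 to 2643] and in 89.0% of cells, where 49.5% of the library's *Chil3* UMIs lay. M8 (1357 CPM) and M1 (1305 CPM) followed, and M3, M5 and M0 were at 760, 756 and 581 CPM. The intervals of M8 and M1 overlapped, and so did those of M3 and M5. M2 was 1.97-fold [1.87 to 2.08] above M1 and 4.43-fold [4.20 to 4.68] above M0. M5, the highest cluster for *Arg1*, was thus among the lower ones for *Chil3*. At 72 h *Chil3* was highest in M1, at 419 CPM with 51.9% of the library's UMIs, which was 5.20-fold [4.15 to 6.56] above M4 (80.7 CPM) and 3.92-fold [2.97 to 5.24] above M6 (107 CPM). Within M1, which both libraries filled, 72 h was at 0.321 [0.281 to 0.366] of 24 h. *Chil3* had no UMI in the Cx3cr1+ Mφ-like M7 in either library. Neutrophil markers also differed between libraries in the monocyte/Mφ-like cells: 7, 9 and 9 of 9 were found, with a summed level of 414, 1831 and 1262 CPM in the naive, 24 h and 72 h libraries. Neutrophil-like cells themselves had 226 CPM of *Chil3* at 24 h, at 0.180 [0.145 to 0.221] of the monocyte/Mφ-like level.

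**Figure D2:**
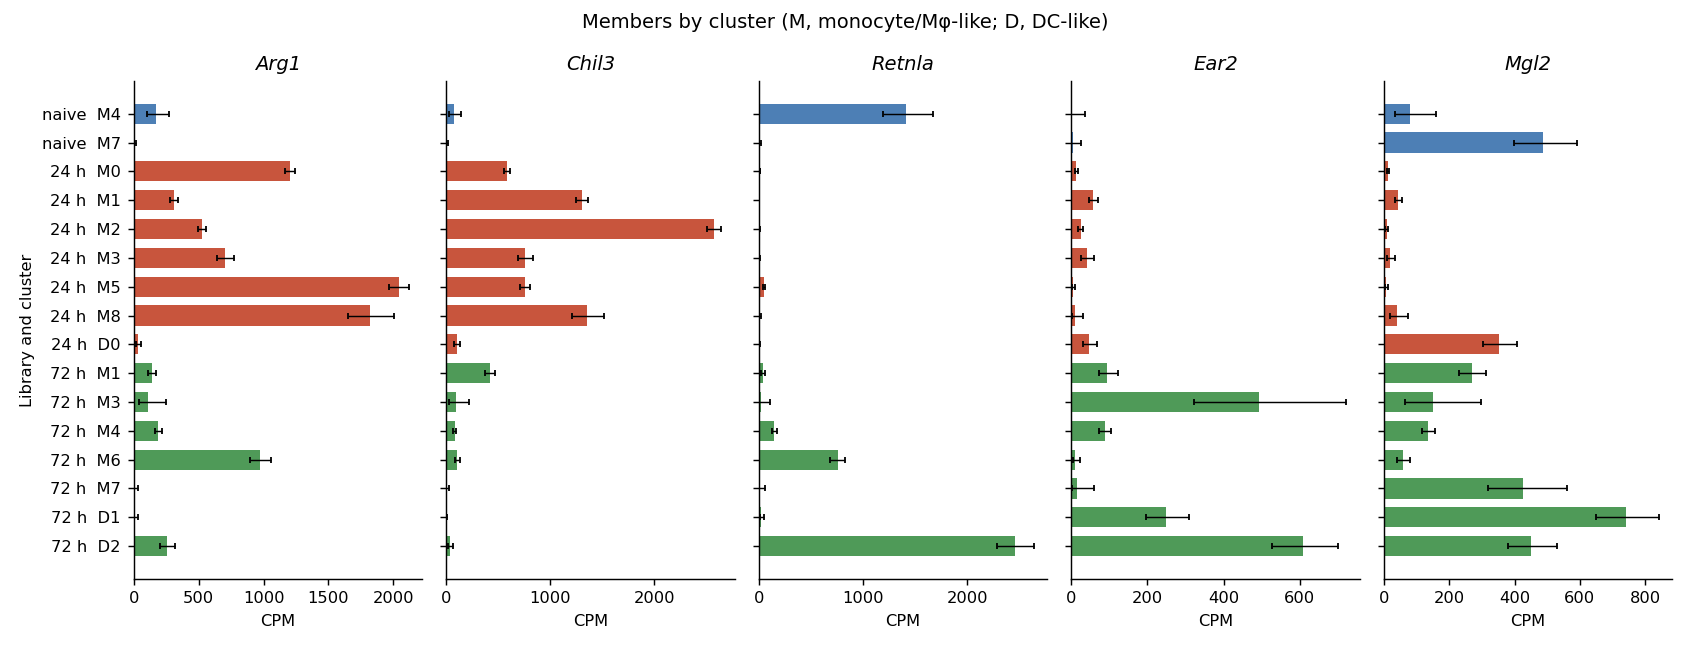
Level of each member (CPM of summed UMIs, x axis) in every monocyte/Mφ-like (M) and DC-like (D) cluster with at least 20 cells in a library (y axis, naive blue, 24 h red, 72 h green). Bars are 1 library each and error bars exact 95% Poisson intervals. *Arg1* was highest in M5 (2039 CPM) and *Chil3* in M2 (2576 CPM) at 24 h, and at 72 h *Retnla* was highest in D2 (2455 CPM) and *Mgl2* in D1 (741 CPM).

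*Retnla* at 72 h was at 755.5 CPM [687 to 828] in the Timp2+ Mφ-like M6, at 149.7 CPM [130 to 172] in the Cd206+ Mφ-like M4 and at 39.0 CPM in M1. M6 was 5.05-fold [4.27 to 5.98] above M4 and M4 was 3.84-fold [2.51 to 6.13] above M1. Without thinning, the share of cells with a UMI differed less, at 23.6% in M6, 21.3% in M4 and 20.2% in M1. After thinning to equal depth, *Retnla* was found in 20 of 106 M6 cells, 25 of 248 M4 cells and 5 of 89 M1 cells. The thinned shares thus had the order of the levels. M6 also held single cells with up to 117 UMIs. M6 was at 568 CPM without its richest cell. The Cx3cr1+ Mφ-like M7 had 16.4 CPM (2 UMIs in 21 cells), below the 26.2 CPM of T cell-like cells. At 24 h *Retnla* was near background in most clusters, and M5 had 49.4 CPM from 6 of 267 cells, of which 1 cell held 38 of 68 UMIs. In naive mice M4 (27 cells) was at 1414 CPM, but this was 1 cell with 139 UMIs, and the level without it was 10.4 CPM.

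In the Cx3cr1+ Mφ-like cluster M7, *Mgl2* was the only member above 16.4 CPM in either library. It was at 486 CPM [397 to 590] in naive M7 cells, with a UMI in 37 of 70 cells, and at 427 CPM [319 to 560] in M7 at 72 h, a ratio of 0.878 [0.617 to 1.24]. M7 held 53.1% of all naive *Mgl2* UMIs. *Mgl2* in naive M7 was 6.02-fold [2.94 to 14.3] above naive M4 (80.8 CPM). At 72 h M7 was followed by M1 (269.9 CPM), M3 (151.5 CPM), M4 (136 CPM) and M6 (58.5 CPM). M7 was 3.14-fold [2.27 to 4.30] above M4, and M4 was 2.32-fold [1.61 to 3.44] above M6, the reverse of their order for *Retnla* and *Arg1*. In M1, the cluster filled at both times, *Mgl2* was at 43.8 CPM at 24 h and 6.16-fold [4.60 to 8.32] higher at 72 h. M7 had no cell at 24 h, so the low class level at 24 h is that of the other clusters.

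*Ear2* at 24 h was at 57.1 CPM in M1, 40.8 CPM in M3 and 24.4 CPM in M2, and at 5.08 CPM in M5, the highest *Arg1* cluster. M1 was 11.2-fold [5.23 to 28.8] above M5. At 72 h *Ear2* was at 94.3 CPM in M1 and 87.9 CPM in M4, whose intervals overlapped, and at 10.0 CPM in M6, near the 9.52 CPM of T cell-like cells. M4 was 8.77-fold [3.91 to 24.4] above M6. The shallow cluster M3 had 492.5 CPM at 72 h, from 26 UMIs in 9 of 27 cells. A cluster of dividing cells, led by *Pclaf*, *Stmn1*, *Top2a* and *Ube2c* and called B cell-like on 6 of 7 markers, held 83 of the library's 637 *Ear2* UMIs at 72 h in 36 cells. That name was not stable for these cells, since at resolution 0.5 the second B cell-like cluster held only 7 cells of the 72 h library. At that resolution the DC-like cluster, with *Stmn1* among its leading genes, held 163 cells of the library, against 128 DC-like cells in the main setting. Whether these were the same cells was not tested. The 78 B cell-like cells of the main setting also held 90 of the 1043 *Mgl2* UMIs at 72 h. Within M1 the 72 h level was 1.65-fold [1.16 to 2.33] above 24 h.

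*Retnla* UMIs lay in few cells. In monocyte/Mφ-like cells, 1, 2 and 6 cells held at least 50% of its UMIs in the naive, 24 h and 72 h libraries. The same share of *Arg1* was held by 5, 144 and 26 cells, that of *Chil3* by 2, 131 and 18, that of *Ear2* by 1, 32 and 15 and that of *Mgl2* by 10, 13 and 23. Over all cells of the 72 h library, 24 cells with at least 10 *Retnla* UMIs held 83.9% of the gene's 1692 UMIs. Of these cells 8 were in D2, 8 in M6, 5 in M4, 2 in M0 and 1 in M5, so they were not 1 cluster. The naive and 24 h libraries each had 3 such cells, with 92.6% of 243 and 60.8% of 125 UMIs.

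**Figure D3:**
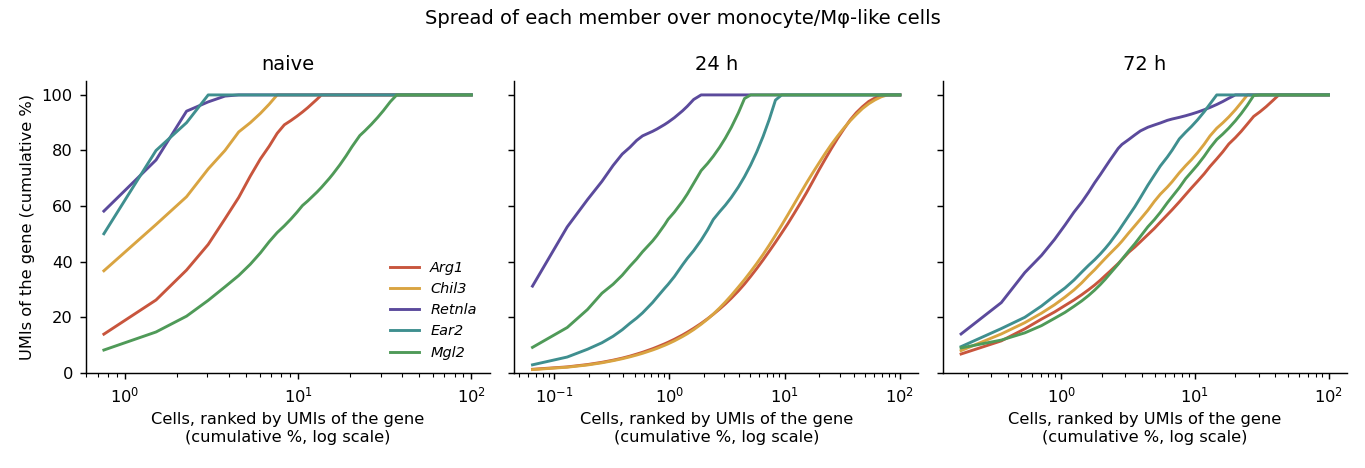
Cumulative share of each member's UMIs (y axis, percent) over monocyte/Mφ-like cells ranked from the richest down (x axis, percent of cells, log scale), 1 panel per library and 1 line per member. At 72 h the *Retnla* line reached 50% of UMIs with 6 cells of 563, and the *Arg1* line with 26.

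In DC-like cells at 72 h *Retnla*, *Ear2* and *Mgl2* were higher and *Arg1* and *Chil3* lower than in monocyte/Mφ-like cells of the same library. *Retnla* was at 838 CPM [781 to 898] against 283.3 CPM, 2.96-fold [2.68 to 3.26] higher. *Ear2* was at 315.7 CPM [281 to 354] against 82.9 CPM, 3.81-fold [3.21 to 4.53] higher, and was found in 56.3% of DC-like cells. *Mgl2* was at 494.7 CPM [451 to 542] against 155.3 CPM, 3.19-fold [2.80 to 3.63] higher, and was found in 61.7%. *Arg1* was at 89.0 CPM, at 0.249 [0.197 to 0.312] of the monocyte/Mφ-like level, and *Chil3* at 11.7 CPM, at 0.0741 [0.0367 to 0.134] of it. By the 2-fold rule 3 of 5 members were higher and 2 lower, where 5.2% of all genes were higher and 6.63% lower.

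The *Retnla* and *Arg1* values of DC-like cells at 72 h came mostly from 1 subcluster, D2, whose class was not settled. D2 held 47 of the 128 DC-like cells at 72 h. It was led by *Fn1*, *Fcrls*, *C1qc* and *C1qa* against the other DC-like cells. It had 371 CPM of the DC gene *Cd209a* and only 12.7 CPM of *Flt3* and 6.34 CPM of *Zbtb46*, the defining genes of conventional DCs, against 1001, 80.6 and 40.3 CPM in D1 (47 cells, led by *Plet1* and *Ppp1r14a*). Of 13 DC markers D2 had 8, with a summed level of 685 CPM against 1953 CPM in D1 and 121 CPM in M4. Of 15 monocyte/Mφ markers it had 14, with 15244 CPM against 2424 CPM in D1 and 52389 CPM in M4. *Apoe* alone made 8588 CPM of the D2 sum, and without it D2 had 6656 CPM against 1314 CPM in D1 and 17287 CPM in M4. D2 thus lay between D1 and M4 on both lists, and with 15 and 10 principal components no DC-like subcluster overlapped it by more than a Jaccard index of 0.133.

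*Retnla* in D2 was at 2455 CPM [2285 to 2634], in 20 of 47 cells, which was 3.25-fold [2.89 to 3.66] above M6. D2 held 45.7% of the library's *Retnla* UMIs in 3.79% of its cells, and was at 2011 CPM without its richest cell. DC-like cells without D2 had 27.0 CPM of *Retnla*, close to the 26.2 CPM of T cell-like cells and at 0.0955 [0.0553 to 0.154] of the monocyte/Mφ-like level, so the direction of the *Retnla* difference turned. *Arg1* was at 254 CPM in D2, with 30 of its 80 UMIs in 1 cell, and at 6.36 CPM in DC-like cells without D2. *Ear2* was at 609 CPM [526 to 701] in D2, in 72.3% of cells, and at 248 CPM [197 to 309] in D1, so D2 was 2.46-fold [1.88 to 3.23] higher. Without D2 the DC-like *Ear2* level was 168.6 CPM, still 2.04-fold [1.61 to 2.57] above monocyte/Mφ-like cells. *Mgl2* did not turn on D2. It was at 741 CPM [650 to 841] in D1 and 450.3 CPM [379 to 531] in D2, and DC-like cells without D2 were at 517 CPM, 3.33-fold [2.88 to 3.85] above monocyte/Mφ-like cells.

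At 24 h DC-like cells differed from monocyte/Mφ-like cells most in *Mgl2*, at 315.4 CPM [276 to 359] against 17.2 CPM, 18.3-fold [14.8 to 22.6] higher. They held 59.4% of the library's *Mgl2* UMIs, most of them in D0 (74 cells, led by *Ly6a*, *Ly6c2*, *Ifitm1* and *Ms4a4c*, with 352.8 CPM). D0 also carried monocyte/Mφ markers, of which *Ly6c2* is 1. Over all libraries their sum without *Apoe* was 6378 CPM in D0 and 6391 CPM in D2, while DC markers summed to 1691 and 652 CPM. *Mgl2* in DC-like cells was 1.57-fold [1.34 to 1.85] higher at 72 h than at 24 h, beside 9.01-fold in monocyte/Mφ-like cells, and the difference of these ratios was not tested. *Ear2* was at 45.9 CPM in DC-like cells at 24 h and 6.88-fold [4.80 to 10.2] higher at 72 h, or 3.91-fold [2.58 to 6.12] without D2. *Arg1* (58.4 CPM) and *Chil3* (97.3 CPM) in DC-like cells at 24 h were within the intervals of T cell-like cells (42.4 and 101 CPM). The 16 naive DC-like cells, too few to compare, had 34 UMIs of *Mgl2* and 20 of *Ear2* in 6 cells each and none of the other 3 members.

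More than 1 member was often found in the same cell. In monocyte/Mφ-like cells at least 2 members were found in 7.58% of naive, 57.1% of 24 h and 37.8% of 72 h cells, and in 85.1% of D2 cells at 72 h. All 5 were found together in 2 Cd206+ Mφ-like M4 cells and 1 D2 cell at 72 h. No naive M7 cell had 2 members. These shares rise with depth and with how common each gene is, so each pair was set against the number of shared cells that the product of the separate shares gives, which is the expectation if the genes were spread independently.

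*Arg1* and *Chil3*, the common pair at 24 h, met in 776 monocyte/Mφ-like cells where 762.6 were expected, a ratio of 1.02, or 0.946 after thinning to 1500 UMIs. Within M5 and M2 the ratios were 1.0 and 1.02, but could hardly leave 1, as 241 of 267 M5 cells had *Arg1* and 282 of 317 M2 cells *Chil3*. After thinning they were 0.959 in M5, 1.01 in M2, 1.09 in M0 and 0.888 in M1. By presence of a UMI in thinned cells, the pair thus met about as often as independent spread gives. The Spearman correlation of their CPM was −0.10 over the class, −0.13 in M5 and 0.12 in M0. *Arg1* and *Ear2* met in 62 cells against 88.7 (0.699, thinned 0.708), but within clusters the thinned ratios were 1.15 in M0, 1.11 in M1, 0.979 in M3 and 0.607 in M2. *Ear2* and *Mgl2* met in 17 cells against 6.10 at 24 h, and after thinning in 4 against 0.905, too few for a ratio. Within M1 they met in 9 cells against 5.16 (1.75), and after thinning in 0 against 0.527. In naive cells *Arg1* and *Mgl2* met in 2 cells against 6.55. Cluster M7 held 103 of the 123 *Mgl2* UMIs of these cells and none of *Arg1*, so this count mixes clusters and does not show avoidance within a cluster.

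At 72 h *Ear2* and *Mgl2* met in 42 monocyte/Mφ-like cells against 22.4 (1.87, thinned 2.46), and within M4 in 22 against 10.6 (2.07, thinned 2.39). *Arg1* and *Retnla* met in 64 cells against 46.7 (1.37, thinned 1.63). Both genes were high in M6, but the pair also met more often within M4, in 28 cells against 20.5 (1.37, thinned 1.62), and within M6 in 26 against 21.3 (1.22, thinned 1.12). *Retnla* and *Ear2* met in 22 cells against 16 (1.38, thinned 1.46), and *Retnla* and *Mgl2* in 43 against 30.8 (1.40, but 1.01 after thinning). *Arg1* and *Chil3* met in 59 against 58.1 (1.02, thinned 0.562). *Chil3* and *Mgl2* met in 36 cells against 38.2 over the class (0.941, thinned 1.19). The clusters went both ways for this pair, with 11 cells against 16.6 in M1 (0.663, thinned 0.553) and 19 against 17.1 in M4 (1.11, thinned 2.04). In D2, *Retnla* and *Ear2* met in 18 of 47 cells against 14.5 (1.24, thinned 1.31), with a Spearman correlation of 0.42 over these cells of 1 library. These ratios rest on few cells in the rarer pairs, share depth and free RNA, and carry no test.

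**Figure D4:**
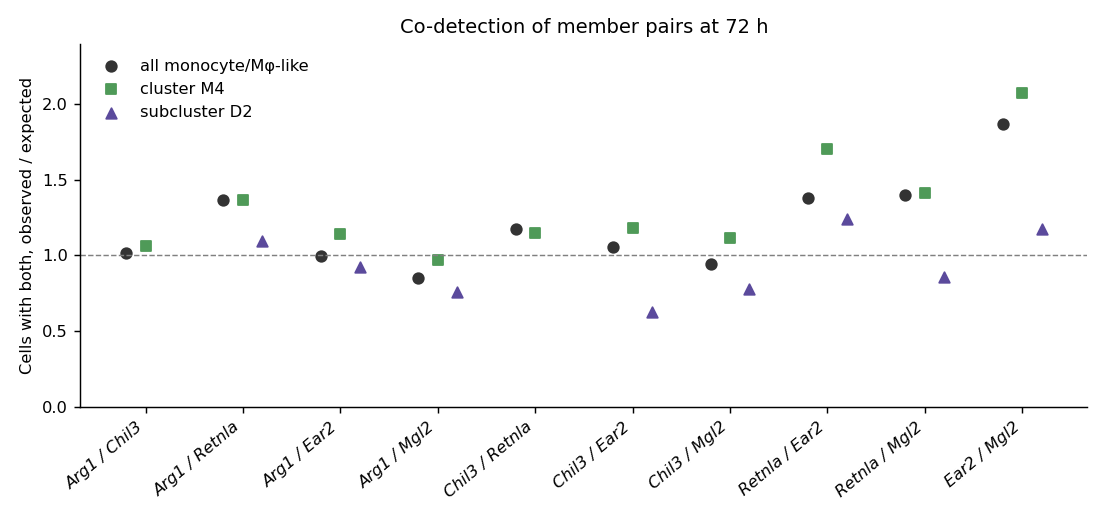
Cells in which 2 members were both found at 72 h, as observed over expected (y axis, 1 is independent spread, dashed), for 10 pairs (x axis) in all monocyte/Mφ-like cells (circles), cluster M4 (squares) and subcluster D2 (triangles). Pairs with fewer than 5 expected cells are left out. *Ear2* with *Mgl2* was highest in monocyte/Mφ-like cells (1.87) and in M4 (2.07).

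Genes whose levels most resembled each member were ranked over 18 groups (clusters by library) among 2408 genes, by Pearson correlation of log2(CPM + 10). The groups share libraries, and the cluster led by B cell genes was among them at 24 h and 72 h, so these values only describe. *Arg1* was most like *Ccl6* (r = 0.97), *Ccl9* (0.95) and *Plin2* (0.94). *Chil3* was most like *Hp* (0.93), *Slfn1* (0.92) and *Msrb1* (0.91), of which *Hp* is a monocyte gene and *Msrb1* stood among the neutrophil markers. *Mgl2* was most like the MHCII gene *H2-Ab1* (0.90), *Tmem176a* (0.89) and the MHCII gene *H2-Eb1* (0.89). *Retnla* (*Hist1h2bc* 0.78, *Pltp* 0.78, *Picalm* 0.77) and *Ear2* (*Tet2* 0.80, *Ndufb10* 0.79, *Olfm1* 0.75) had no gene above 0.80. Among the members, *Arg1* and *Chil3* correlated at 0.82 over the groups, and *Mgl2* at −0.81 with *Arg1* and −0.84 with *Chil3*. *Retnla* lay between −0.29 and 0.22 with the other 4.

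Of the members' relatives, 11 of 20 listed were in the files, and in monocyte/Mφ-like cells they were mostly low. *Arg2*, the mitochondrial arginase, was at 0, 8.85 and 6.06 CPM in the naive, 24 h and 72 h libraries. *Retnlg*, a resistin-like gene of granulocytes, was at 0, 22.4 and 19.2 CPM and *Retn* at 0, 0.448 and 0 CPM. *Chil1* was at 2.27, 1.57 and 0.337 CPM and *Chil5* at 0 in all 3. *Rnase4* was at 100, 50.9 and 90.6 CPM and *Ang* at 47.7, 19.1 and 38.7 CPM, and *Rnase2a* and *Rnase2b* stayed at or under 1.68 CPM. *Clec10a*, which encodes the CD301a lectin next of kin to *Mgl2*, was at 72.7, 67.9 and 114.9 CPM, and so lacked the low 24 h level of *Mgl2*. In DC-like cells it was at 378 CPM at 24 h and 304 CPM at 72 h. *Asgr2* was at 13.6, 0.336 and 4.04 CPM. For this list and those below, 5.69% of all genes were higher and 5.61% lower from naive to 24 h, and 2.05% and 2.22% from 24 h to 72 h. Between naive mice and 72 h the shares were 1.46% and 2.17%, and for DC-like over monocyte/Mφ-like cells 5.2% and 6.63%. From naive to 24 h only *Retnlg* of 4 relatives above the filter was 2-fold apart, against a naive level of 0. None of 4 was apart between 24 h and 72 h, and none of 3 between naive mice and 72 h. In DC-like against monocyte/Mφ-like cells at 72 h *Clec10a* was higher and *Rnase4* (15.9 against 90.6 CPM) and *Ang* (4.24 against 38.7 CPM) lower. The log2 medians of the relatives were −0.47, 0.70, −0.13 and −1.78.

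The receptor side of IL-4 signalling differed little in monocyte/Mφ-like cells. *Il4ra* was at 72.7, 63.9 and 85.9 CPM and *Stat6* at 31.8, 57.6 and 44.1 CPM in the naive, 24 h and 72 h libraries. Of 9 genes of IL-4/IL-13 signalling above the filter, 1 was higher at 24 h than in naive mice, *Pparg* at 21.2 against 2.27 CPM, and none was 2-fold apart between 24 h and 72 h. The medians of the log2 differences were −0.05 and −0.02, beside 0.06 and −0.07 over all genes. The cytokine *Il4* had 0, 0 and 2 UMIs in these cells and *Il13* none. T cell-like cells had 4, 0 and 6 UMIs of *Il4* and 0, 5 and 3 of *Il13*. All of these lay in T cell-like cluster 10, in at most 3 cells per gene and library. *Cd3e* was not found in every cell of that cluster, so these UMIs are not assigned to T cells. Between naive mice and 72 h none of 8 signalling genes was 2-fold apart (median 0.13). In DC-like against monocyte/Mφ-like cells at 72 h *Socs2* (60.4 against 16.8 CPM) and *Irf4* (39.2 against 14.5 CPM), a factor of type 2 DCs, were the 2 higher of 11 genes, with a median log2 difference of 0.63 beside 0.07 over all genes.

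Other genes often listed with alternative activation did not share 1 course. From naive to 24 h, 3 of 14 were higher and 3 lower, beside 5.69% and 5.61% of all genes. The eosinophil-attracting chemokine gene *Ccl24* was at 475 against 47.7 CPM, the IL-1 antagonist gene *Il1rn* at 148 against 15.9 CPM and the scavenger receptor gene *Msr1* at 267 against 95.5 CPM, while *Cd163* (6.16 against 50 CPM), *Ch25h* (0.896 against 38.6 CPM) and *Ptgs1* (34.5 against 118 CPM) were lower. From 24 h to 72 h, 2 of 12 were higher, *Mrc1*, which encodes CD206, at 321.7 against 142 CPM and *Ptgs1* at 94.7 against 34.5 CPM, and 2 lower, *Ccl24* at 200.7 and *Cd36* at 65.3 against 144 CPM. *Ccl24* and *Msr1* thus had *Arg1*'s side of the comparison at 24 h and *Cd163* that of *Mgl2*. Between naive mice and 72 h, 2 of 14 were higher (*Il1rn*, *Ccl24*) and 3 lower (*Ch25h*, *Cd163* and *Cd36*). In DC-like cells at 72 h, 4 of 15 were higher, the chemokine genes *Ccl17* (558 against 17.9 CPM) and *Ccl22* (99.6 against 3.37 CPM) and the lectin genes *Cd209d* and *Clec10a*, and 9 lower, among them *Msr1* (9.53 against 143 CPM), *Folr2*, *Ccl24* and *Trem2*. The medians of this list were −0.18 from naive to 24 h, 0.36 from 24 h to 72 h, 0.44 from naive to 72 h and −1.25 for DC-like over monocyte/Mφ-like cells, on the log2 scale.

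Beside *Arg1*, other genes of arginine use were seldom 2-fold apart. *Ass1*, which rebuilds arginine from citrulline, was at 80.2 CPM at 24 h against 9.09 CPM in naive mice and 31.0 CPM at 72 h, and *Odc1*, the first step from ornithine to polyamines, at 67.5 against 27.3 CPM, the 2 higher of 10 genes. From 24 h to 72 h *Ass1* was the 1 lower of 10. No gene of the 10 was apart between DC-like and monocyte/Mφ-like cells at 72 h. The list's log2 medians were 0.40, −0.33, 0.07 and 0.31 in the same 4 comparisons.

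Classical activation genes went both ways. At 24 h 2 of 14 were higher than in naive mice, *Cxcl10* (199 against 75.0 CPM) and *Acod1* (31.4 against 2.27 CPM), and 4 lower, *Ccl5* (28.0 against 173 CPM), *Socs3* (89.7 against 243 CPM), *Cxcl9* and *Il6*. At 72 h 2 of 12 were higher than at 24 h (*Ccl5*, *Socs3*) and 2 lower (*Cxcl10*, *Acod1*). Between naive mice and 72 h *Il1b* was the 1 higher of 13 (713 against 347.7 CPM) and *Cxcl10* and *Cxcl9* were lower. In DC-like against monocyte/Mφ-like cells 1 of 9, *Cd38*, was lower (56.2 against 141 CPM). The log2 medians were −0.08, 0.15, −0.24 and −0.10.

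MHCII genes had the course of *Mgl2*. Of 7 above the filter, 6 were lower at 24 h than in naive mice, with *H2-Eb1* at 1112 against 10882 CPM and *Cd74* at 5271 against 36188 CPM, and 5 were higher at 72 h than at 24 h, with *H2-Eb1* at 4386 CPM. The medians of their log2 differences were −2.76 and 1.58. At 72 h 3 of 7 were still lower than in naive mice (median −1.0). *Mgl2* stood with these genes in the likeness ranking as well, and the 2 are not independent views, since they use the same cells. In DC-like against monocyte/Mφ-like cells at 72 h 2 of 8 were 2-fold higher, *H2-DMb2* (473 against 27.6 CPM) and *H2-Eb2*, with a median of 0.73.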

How the data were processed

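Per the labels, the authors prepared the 3 libraries with the 10x 3' v2 kit, and Cell Ranger 3.0.2 placed the reads on GRCm38/mm10 and gave UMI counts. They removed cells with fewer than 200 genes or over 10% mitochondrial UMIs. The deposited values are raw counts, and 0 columns of other samples were present. The members and all lists were chosen with earlier results of these data known.

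Cells were clustered with Seurat 5.3.0 in R 4.3.3 (2000 variable genes without members and listed genes, 30 principal components for all cells and 20 within classes, resolution 0.8, 17 clusters). Classes needed at least 3 markers. This rule, the removal of the cluster led by B cell genes and the split by D2 were set after clusters were seen. Doublets were kept, and leaving out the highest scores (0.8% per 1000 cells) was an alternative. Counts were summed per group, and CPM, Clopper-Pearson shares and conditional Poisson ratios computed with numpy 2.4.6 and scipy 1.17.1, checked on simulated data. Beside a 0 stands the limit set by 3 counts. Thinning to 1500 UMIs used seed 7.

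Named were the members, their relatives, listed genes 2-fold apart (at most 8 per list and comparison, largest first), the 3 most alike genes per member and the 4 leading genes per cluster. Receptor genes and D2 markers are shown beyond this rule, chosen after values were seen. Sequences are from RefSeq (GRCm38.p6).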

Additional observations from a re-analysis of the deposited data

Results flagged for a closer look

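*Arg1* differed in direction between classes. From 24 h to 72 h it was 1.52-fold [1.04 to 2.26] higher in DC-like cells and at 0.360 of its level in monocyte/Mφ-like cells. The difference was not tested, as there is 1 library per time point. In DC-like cells without subcluster D2, *Arg1* was at 44.6 CPM at 24 h and 6.36 CPM at 72 h, so the opposite direction rested on the 47 D2 cells, and 1 of them held 30 of the 80 UMIs. Beside the DC-like values without D2, *Arg1* in the largest B cell-like cluster was at 29.1 CPM at 24 h and 9.98 CPM at 72 h.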

How the results depend on the processing

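The 5 members' ratios of 24 h over naive and of 72 h over 24 h in monocyte/Mφ-like cells kept their direction in 11 alternatives, except *Ear2* at 24 h over naive, which lay on both sides of 1 (0.879 to 2.03). The ratios of 72 h over naive were not put through these alternatives, and the *Retnla* one turned without the richest cells (229 CPM naive, 244.5 CPM at 72 h). In all, 92 such values moved by less than their counting interval and 18 moved further. With the stricter cell filter *Arg1* was at 9.23-fold and *Retnla* at 0.0168 (24 h over naive) and 29.4-fold (72 h over 24 h). With the mean of each cell's CPM *Chil3* was at 31.5-fold and *Retnla* at 0.0185 (24 h over naive), and *Retnla* at 16.3-fold and *Mgl2* at 7.33-fold (72 h over 24 h). Without the richest cell *Chil3* was at 28.4-fold and *Retnla* at 0.0411 and 26.0-fold. With cells taken by fixed markers, 72 h over 24 h was 0.324 for *Arg1*, 0.104 for *Chil3*, 32.3 for *Retnla*, 5.74 for *Ear2* and 5.88 for *Mgl2*, and 24 h over naive 0.0323 for *Retnla* and 0.132 for *Mgl2*. With 15 and 10 principal components *Retnla* was 25.9-fold higher at 72 h than at 24 h.

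DC-like over monocyte/Mφ-like cells at 72 h turned for *Retnla* with 15 and 10 principal components (0.0724) and without D2 (0.0955), and otherwise stood at 2.38 (resolution 0.5), 2.59 (a larger set of variable genes), 3.52 (listed genes kept), 2.34 (stricter filter) and 5.21 (mean of CPM). *Arg1* was at 0.155 with the larger set of variable genes and with 15 and 10 components, 0.164 with listed genes kept, 0.168 with the stricter filter, 0.0178 without D2 and 0.174 without the richest cell. *Chil3* was at 0.0257 with 15 and 10 components. *Ear2* was at 2.09 with these, 5.07 with listed genes kept, 4.95 with the mean of CPM and 2.04 without D2, and *Mgl2* at 4.16 with the mean. The cause was not tested. *Chil3* had no UMI in DC-like cells without D2, at least 33.0-fold lower. Fixed markers found 16 DCs at 72 h, so no ratio was taken. The B gene cluster put back, D2 left out and the richest cell left out were chosen after seeing the data.

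The CPM of the highest cluster moved in 8 of 35 alternatives, co-detection ratios in 20 of 82 after thinning, shares of cells in 21 of 25 after thinning, and counts of listed genes in 8 of 112. No paired analysis was possible because each time point is 1 library. Leaving out a replicate was not possible for the same reason. Naive values rest on 132 monocyte/Mφ-like cells.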

Other observations

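Arginase 1 is a known product of group 2 innate lymphoid cells, which carry *Gata3* and *Klrg1* and lack *Cd3e*. These genes were looked at after *Arg1* had been seen in the lymphoid clusters, so the counts only describe. *Arg1* in T cell-like cells lay in 1 of 2 clusters at 72 h: 12 of 107 cells of cluster 10 had 33 UMIs, with up to 11 in a cell, and 0 of 28 cells of cluster 11 had any, which allows a share of up to 10.7%. Of the 12 cells, 9 had a *Gata3* UMI, 6 *Klrg1* and 1 *Cd3e*. Of the other 95 cells of the cluster, 30 had *Gata3*, 13 *Klrg1* and 51 *Cd3e*. The innate lymphoid markers *Il1rl1* and *Rora* were found in 2 and 6 of the 12 cells and in 3 and 35 of the other 95. In naive mice 4 of 57 cells of cluster 10 had *Arg1*, of which 3 had *Gata3*, 4 *Klrg1* and 0 *Cd3e*, against 15, 4 and 31 of the other 53. None of these 4 cells had *Rora*, against 16 of the other 53, and no naive cell of the cluster had *Il1rl1*. The myeloid genes *Lyz2* and *Csf1r* were found in 12 and 1 of the 12 cells at 72 h and in 83 and 5 of the other 95, and *Lyz2* in 0 of the 4 naive cells and 10 of the other 53. At 24 h 7 of 65 cells had 1 *Arg1* UMI each, of which 2 had *Gata3*, 1 *Klrg1*, 0 *Il1rl1*, 4 *Rora*, 2 *Cd3e* and 7 *Lyz2*. Of the other 58 cells, 11 had *Gata3*, 4 *Klrg1*, 0 *Il1rl1*, 12 *Rora*, 24 *Cd3e* and 47 *Lyz2*.

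Relatives of the members were high in neutrophil-like cells, which numbered 412 at 24 h and 110 at 72 h. *Retnlg* was at 2880 and 3560 CPM in them, *Arg2* at 309.8 and 282 CPM, *Chil1* at 226 and 103.3 CPM and *Retn* at 34.4 and 68.9 CPM. *Chil3* was at 226 CPM in these cells at 24 h and 13.8 CPM (2 UMIs) at 72 h. *Il4ra* was at 152.5 and 151.5 CPM in them, above the 63.9 and 85.9 CPM of monocyte/Mφ-like cells.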
